A study of Mus musculus with 3 samples.

Results

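Glutathione is the small thiol peptide with which cells take up peroxides and electrophiles, and 9 genes of its synthesis, recycling and use were followed here through newborn mouse liver leukocytes that lack or keep Pex2. They were Gstp3 and Gstp1 (cytosolic transferases of the pi class), Gstm1 (mu class), Mgst1 and Mgst2 (transferases of intracellular membranes), Gclc and Gclm (the catalytic and modifier subunits of glutamate-cysteine ligase), Gss (glutathione synthetase) and Gsr (glutathione reductase). All 9 were among the 19059 genes of the deposited matrices. They were chosen by the Gstp3 level, already known to be nearly absent from the KO library, so every KO difference below is a description and none is a test. The samples were viable CD45+ cells sorted from livers of mice at postnatal day 0, once most hepatocytes had been spun out at low speed and red cells lysed. The genotypes were pex2+/+ (WT), pex2-/+ (Het) and pex2-/- (KO), with 1 library each. The sources used here do not give strain, sex or how many animals went into a library, and they name no treatment. Pex2 encodes a membrane protein through which peroxisomes import their enzymes.

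Glutathione is made in 2 steps. Glutamate-cysteine ligase joins glutamate to cysteine, which limits the rate, and glutathione synthetase adds glycine. Glutathione transferases couple it to electrophiles, peroxidases oxidise it while reducing peroxides, and glutathione reductase returns the oxidised form at the cost of NADPH. In phagocytes the same cycle buffers the oxidants of the respiratory burst. Several of these genes carry the antioxidant response element, the site at which the factor NRF2 (gene Nfe2l2) acts.

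The assay reads each gene through short probe pairs, so the pi-class copies were compared first. Gstp1, Gstp2 and Gstp3 lie side by side on chromosome 19, all on the minus strand (GRCm38 annotation, the build that mm10 names): Gstp1 at 4035407 to 4037985, Gstp2 at 4040285 to 4046023 and Gstp3 at 4057477 to 4059569. Each has 633 coding bases in the GENCODE transcript used. Gstp1 and Gstp2 were identical at 98.1% of coding bases, and 415 of the 584 windows of 50 bases in Gstp1 matched Gstp2 without a mismatch. Gstp3 matched each of the other copies at 71.6% of coding bases, and no window of 50 bases was identical to Gstp1 or Gstp2. The closest window differed by 3 bases from Gstp1 and by 2 from Gstp2, with medians of 13 and 12. The stretch of exon 3 in which Gstp3 and Gstp1 were most alike is shown because a shared probe would have to lie in such a place. It covers coding bases 38 to 97, at chr19:4058782-4058841 in Gstp3, chr19:4037337-4037396 in Gstp1 and chr19:4041631-4041690 in Gstp2, read 5′ to 3′ on the minus strand, and capitals mark bases that differ from Gstp3.
Gstp3: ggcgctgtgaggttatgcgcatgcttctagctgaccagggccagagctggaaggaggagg
Gstp1: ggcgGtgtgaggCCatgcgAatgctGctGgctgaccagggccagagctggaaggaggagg
Gstp2: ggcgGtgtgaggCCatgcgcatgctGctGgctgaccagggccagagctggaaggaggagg
Gstp1 differed there at 6 of 60 bases and Gstp2 at 5. The stretch of exon 5 in which the copies were most different follows, coding bases 277 to 336, at chr19:4058086-4058145 in Gstp3, chr19:4036688-4036747 in Gstp1 and chr19:4040982-4041041 in Gstp2.
Gstp3: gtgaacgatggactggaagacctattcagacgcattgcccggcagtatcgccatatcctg
Gstp1: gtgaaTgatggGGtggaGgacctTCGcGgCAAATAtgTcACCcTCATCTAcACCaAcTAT
Gstp2: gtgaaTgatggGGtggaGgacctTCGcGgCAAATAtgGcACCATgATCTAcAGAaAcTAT
Gstp1 and Gstp2 each differed from Gstp3 at 32 of these 60 bases. Where the assay's own probes lie was not analysed here. Whether a probe of one copy captures another was not tested. KO cells of the B lineage gave 165 Gstp1 UMIs (a UMI is a molecular tag, counted once per captured probe pair) but 1 Gstp3 UMI. Gstp1 is uncertain against Gstp2, which it resembles far more and whose own row held 2, 7 and 2 UMIs in the WT, Het and KO libraries.

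The libraries held 9600 (labelled WT), 8000 (labelled Het) and 8245 (KO) barcodes, with median depths of 8218.5, 15558.5 and 19348 UMIs per cell. All triplets of values below follow this order. Levels are CPM, the gene's UMIs per 1e+06 UMIs of a library or class. Their 95% intervals are exact Poisson ones and hold counting error alone. As each genotype has 1 library, no difference has a replicate check. Pex2 stood at 23.6, 53.3 and 0.0107 CPM, so the KO label held and the labelled Het library lay above the labelled WT library, against the order of the genotypes. Ddx3y on the Y chromosome gave 7956, 2 and 3 UMIs, so sex and the labelled WT genotype cannot be told apart, while the labelled Het and KO libraries share this feature. No whole barcode occurred in more than 1 library, although 961 to 1184 of the first 16 bases did in each pair, and Ptprc (CD45) was found at 249 to 311 CPM. Markers of hepatocytes summed to 102, 98.3 and 117 CPM over 15 genes, 88.2% to 94.1% of it Trf, and without Trf to 6.05, 7.83 and 13.8 CPM. Cells were sorted into 12 marker-named classes, which are called like the cell type they resemble, and 7 of them held at least 50 cells in each library.

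Over all cells, Gstp3 stood at 113 CPM in the library labelled WT (interval 111 to 115, 10937 UMIs), 96.7 CPM in that labelled Het (95.1 to 98.3, 13976 UMIs) and 3.44 CPM in KO (3.18 to 3.72, 641 UMIs). The level in KO was 0.0304 times that of the labelled WT library (0.0280 to 0.0329) and 0.0356 times that of the labelled Het library (0.0328 to 0.0385). Gstp1 was at 37.5, 37.8 and 19.1 CPM, so both control libraries agreed within their counting error while KO held 0.508 and 0.504 of their levels. These log2 ratios, -0.98 and -0.99, became -0.76 and -0.61 with each class given equal weight, and -0.70 and -0.65 with edgeR's TMM scaling. B-lineage-like cells gave 27.7% and 19.4% of the Gstp1 UMIs in the controls but 4.87% in KO. Of the 8 members whose mean over the libraries reached 10 CPM, 1 was at least 2-fold lower in KO than in both control libraries, Gstp3, against 4.67% of the 8327 genes at that floor. None was 2-fold higher than both, against 0.624% of those genes. With 1.5-fold in place of 2-fold, Gstp1 joined it, against 13.4% of genes lower, and still no member was higher, against 2.76% of genes. These shares are read beside the members only as background, since the difference in Gstp3 chose them.

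**Figure D1:**
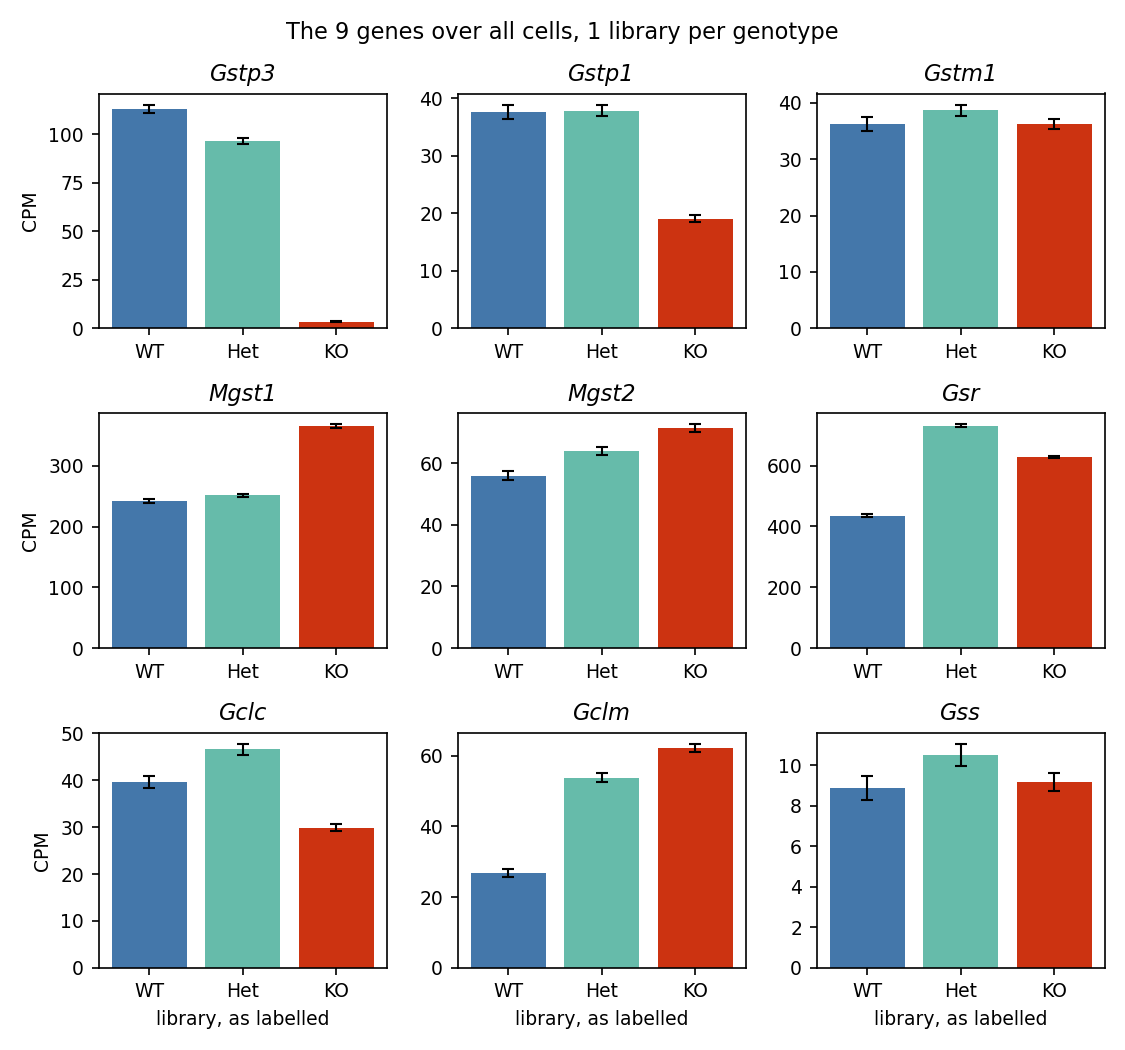
Levels of the 9 genes over all cells (CPM, bars from 0) in the libraries labelled WT, Het and KO; black bars are 95% Poisson intervals. Gstp3 drops from 113 and 96.7 to 3.44 CPM and Gstp1 from 37.5 and 37.8 to 19.1 CPM, while Mgst1 is highest in KO, Gsr on this scale in the labelled Het library, and Gclm is lowest in the labelled WT library.

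The other 7 genes did not follow Gstp3. Gstm1 was level across libraries at 36.2, 38.6 and 36.2 CPM. Mgst1 was highest in KO at 242, 251 and 365 CPM, which put KO at 1.51 and 1.45 times the control levels. Mgst2 was at 55.9, 63.9 and 71.4 CPM, but its log2 ratio of KO over labelled Het, 0.16, turned to -0.06 both as the mean of per-cell CPM and with each cell thinned to 3000 UMIs. Gclm was at 26.8, 53.8 and 62.1 CPM, and here the control libraries differed 2-fold from each other, as did 0.624% of genes in that direction. KO therefore exceeded the labelled Het library only 1.15-fold (1.12 to 1.19) and the labelled WT library 2.32-fold (2.22 to 2.42). Gsr was at 436, 731 and 629 CPM, highest in the labelled Het library on this scale, and Gss stayed near the floor at 8.87, 10.5 and 9.17 CPM. The median gene at the floor lay at log2 ratios of -0.13 (KO over labelled WT) and -0.16 (KO over labelled Het), and edgeR's TMM scaling moved it to 0.15 and 0.18. With TMM and DESeq2 factors the log2 ratio of KO over labelled Het turned from -0.22 to 0.12 and 0.09 for Gsr, from -0.19 to 0.15 and 0.11 for Gss, and from -0.09 to 0.25 and 0.21 for Gstm1.

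Gstp3 was foremost a gene of neutrophils and their relatives in the control libraries. In neutrophil-lineage-like cells, the largest class with 5652, 4584 and 4688 cells, it was at 166, 141 and 2.82 CPM (8676, 10707 and 315 UMIs). These cells gave 83.6% and 79.4% of its UMIs in the control libraries. The control level was higher still in the few basophil- and mast-like cells, at 260, 177 and 23.8 CPM over 72, 74 and 57 cells. Granulocyte-precursor-like cells had 78.1, 73.5 and 1.21 CPM, and erythroid-like cells 68.1, 61.1 and 16.5 CPM. The precursor class pools a cluster like promyelocytes, which load the first granules, with clusters that have Klf4, F13a1, Myc or Cd34 among their leading genes. Monocyte-like cells had 15.3, 13.4 and 1.88 CPM and B-lineage-like cells 16.3, 8.89 and 0.168 CPM. In each of these 6 classes KO lay below both controls with intervals that did not overlap, from 0.0103 times the labelled WT level in B-lineage-like cells to 0.242 times in erythroid-like cells. The B-lineage-like control counts were only 1.18 and 1.20 times the number given by a tracer of free neutrophil RNA (below). In the labelled WT library the B-lineage-like UMIs lay in 98 of 1883 cells, with up to 13 in 1 cell. Whether the B-lineage-like ratio reflects expression in these cells or free RNA was not tested. Ranked by the mean of the control libraries, the order ran basophil and mast, neutrophil lineage, precursor, erythroid, macrophage, monocyte and B lineage. Only the last pair overlapped in its control values.

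Taken as a whole class, macrophage- and Kupffer-like cells were the exception among the 7 classes. Gstp3 was at 23.3, 39.98 and 28.9 CPM there, from 14, 32 and 47 UMIs in 73, 73 and 117 cells, and the 3 intervals overlapped. Natural-killer- and innate-lymphoid-like cells, too few in the labelled WT library to be compared, had 48.1, 86.4 and 50.1 CPM (9, 72 and 36 UMIs in 17, 48 and 59 cells). Cells led by MHC class II genes (H2-Aa, H2-Eb1, Cd74), some of whose clusters also carry Clec9a and Cadm1 of type 1 dendritic cells, had 42.2, 37.4 and 7.74 CPM. Stem-like progenitors had 20.5 and 23.9 CPM in the controls and 0 UMIs in KO, plasmacytoid-like cells 22.5, 11.5 and 3.26 CPM, and eosinophil-like cells 3, 6 and 0 UMIs. Of the 47 UMIs in KO macrophage-like cells, no cell held more than 8, and 18 of 117 cells held at least 1. Of these UMIs, 37 lay in 1 cluster of 53 KO cells that held no control cells. In another macrophage-like cluster, with cells of all 3 libraries, Gstp3 was at 41.2, 79.8 and 8.60 CPM, from 2, 23 and 2 UMIs. That cluster also had Ltf, a neutrophil granule gene, at 13455 CPM. The 14 hepatocyte markers other than Trf summed to 165, 126 and 199 CPM in this class, against 1.28, 2.13 and 6.26 CPM in neutrophil-lineage-like cells, and their part in the result was not tested.

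**Figure D2:**
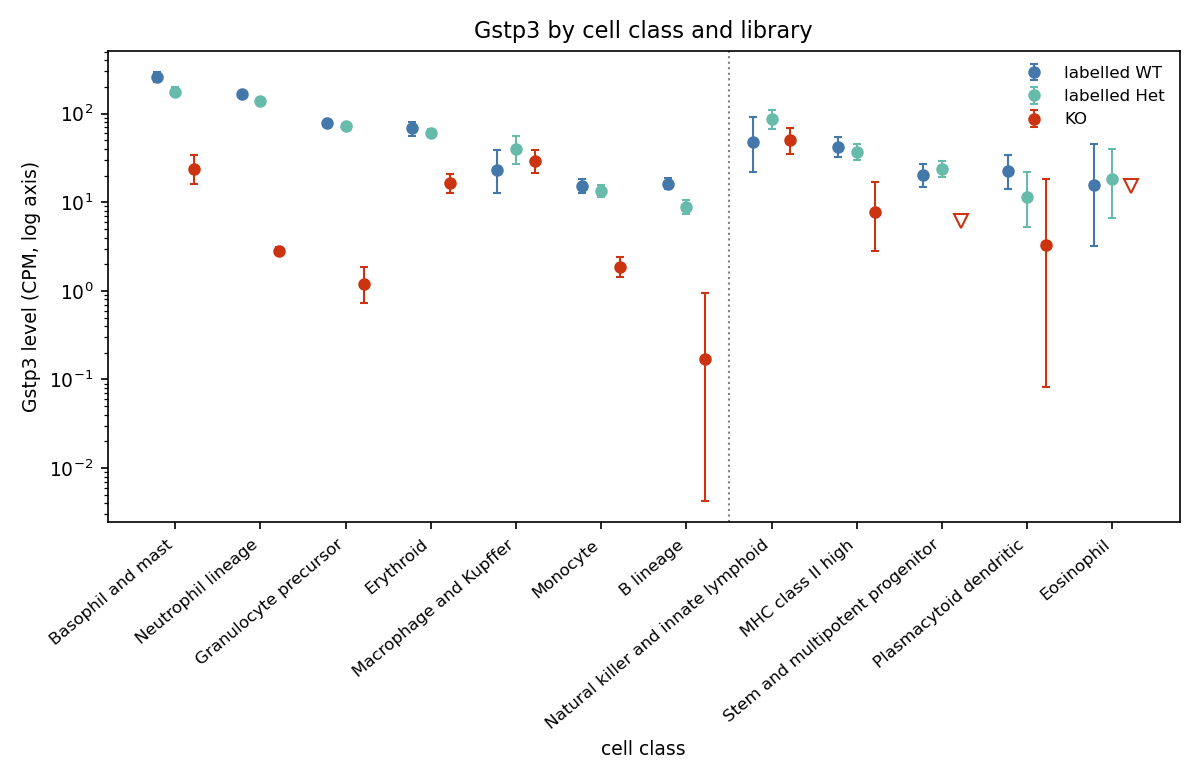
Gstp3 level by cell class (CPM, log axis) in the 3 libraries; bars are 95% Poisson intervals, open triangles give the upper limit where no UMI was found, and classes right of the dotted line hold under 50 cells in at least 1 library. KO points lie far below both controls in most classes. In macrophage-like and natural-killer-like cells the values span 23.3 to 86.4 CPM, with KO between the control libraries in each class.

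The share of cells with a Gstp3 UMI was counted after every cell had been thinned to 3000 UMIs, because depth differed between libraries. In neutrophil-lineage-like cells it was 35.8% (exact Clopper-Pearson interval 34.5% to 37.1%, 5517 cells), 32.5% (31.1% to 33.9%, 4453 cells) and 0.710% (0.490% to 0.996%, 4645 cells). Without thinning the shares were 63.3%, 71.5% and 4.16% at median depths of 8022, 14910 and 21370 UMIs. B-lineage-like cells, the class with the lowest level, had thinned shares of 2.48%, 0.841% and 0 of 757 cells. A count of 0 allows a share with a UMI of up to 0.396% (3 cells of 757), and the Clopper-Pearson bound is 0.486%. Their median depths were 4098, 7305 and 5646 UMIs. Basophil- and mast-like cells had thinned shares of 50.0%, 43.2% and 8.93%. Macrophage-like cells had 3.51%, 7.55% and 10.8%, with overlapping intervals.

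Free RNA from the abundant neutrophils can place their transcripts in any droplet. Ltf (lactoferrin, a neutrophil granule protein) was used as its tracer: the Ltf UMIs of a class were multiplied by the ratio of Gstp3 to Ltf in the neutrophil-lineage-like cells of the same library. In the control libraries the observed Gstp3 UMIs of macrophage-like cells were 0.813 and 1.01 times that number, and those of B-lineage-like cells 1.18 and 1.20 times. The control counts of macrophage-like cells thus lay at that number and those of B-lineage-like cells a little above it. Whether levels this near to it reflect expression or free RNA was not tested. The macrophage-like UMIs lay in 7 and 12 of 73 cells in the controls, with up to 6 and 7 in 1 cell. The Gstp3 to Ltf ratio also varied within the neutrophil lineage. In the labelled WT library, cells with low Ltf and high Cxcr2 (below) held 198 Gstp3 and 524 Ltf UMIs. Dividing cells with granule genes held 3296 and 477048. Monocyte-like cells of the controls stood at 2.19 and 1.87 times that number. Precursor-like, erythroid-like and basophil- and mast-like cells stood above it in both controls, by 5.39 and 6.16, 4.62 and 7.35, and 37.0 and 14.1 times. In the KO library the neutrophil-lineage-like cells held so little Gstp3 that the same ratio gives 0.690 UMIs for macrophage-like cells, and the 47 observed were 68.1 times that number. Erythroid-like cells of KO stood at 113 times, basophil- and mast-like cells at 337 times and natural-killer-like cells at 774 times. B-lineage-like cells of KO, with 1 UMI, stood at 1.66 times. The Gstp3 UMIs of these KO classes thus exceeded the number that the neutrophil ratio gives. That number is small because Gstp3 was low in KO neutrophil-lineage-like cells, so the KO multiples cannot be set against those of the controls. The source of these UMIs was not tested.

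**Figure D3:**
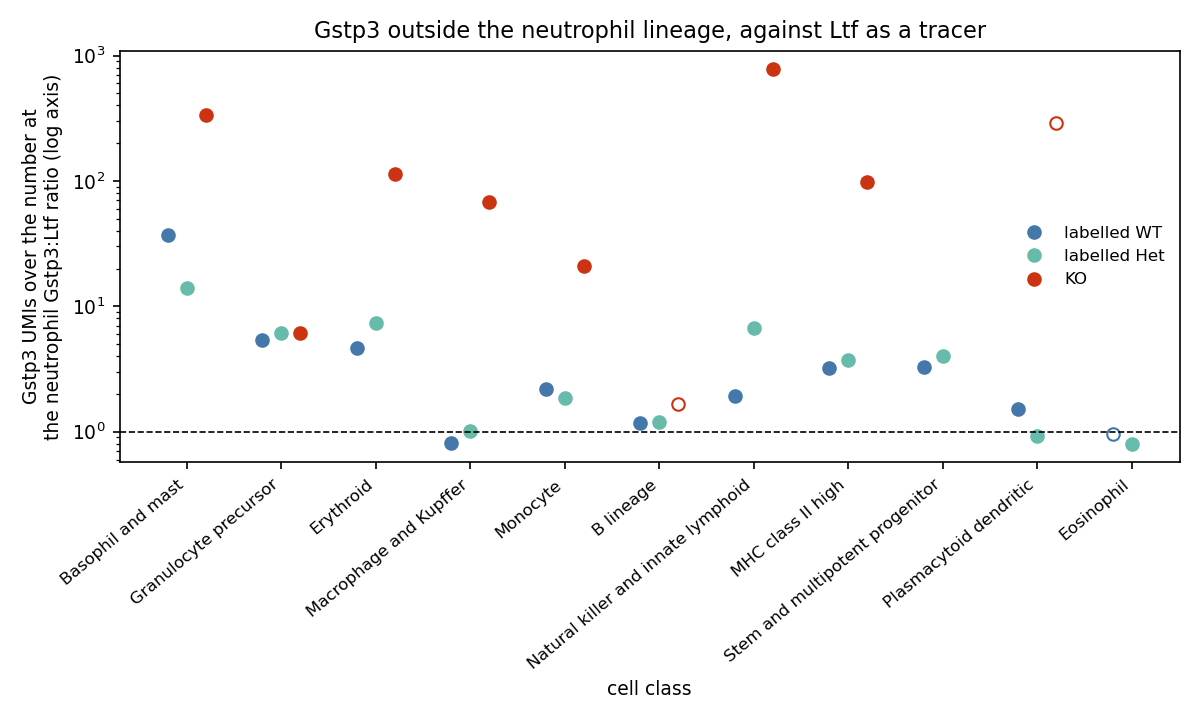
Gstp3 UMIs observed in each class outside the neutrophil lineage, divided by the number that the neutrophil Gstp3 to Ltf ratio of the same library gives (log axis; dashed line at 1; open points rest on under 5 UMIs; classes with 0 UMIs are not drawn). Control macrophage-like, B-lineage-like and eosinophil-like cells lie near 1, while KO macrophage-like, erythroid-like and basophil- and mast-like cells lie at 68.1 to 337. The latter KO points are divided by only 0.0861 to 0.690 UMIs.

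The neutrophil lineage was then divided into 4 steps by the levels of Mki67 (a division marker), Ltf and Cxcr2 (a receptor of mature neutrophils). Gstp3 was at 78.1, 73.5 and 1.21 CPM in precursors, 133, 117 and 2.85 CPM in dividing cells with granule genes, 194, 180 and 2.77 CPM in non-dividing ones, and 193, 121 and 9.06 CPM in cells with low Ltf and high Cxcr2. The control level was therefore higher at each of the first 3 steps than at the one before, and KO lay under both controls at every step. The precursor value mixes clusters: without 3 that had 5.84 to 24.5 CPM in the controls, precursors stood at 121, 107 and 1.19 CPM, close to the dividing cells. The last step rests on 198, 199 and 17 UMIs and, in KO, mainly on 1 cluster that could not be named. Clustering parted the libraries, and 83.1% of KO neutrophil-lineage-like cells lay in clusters with under 5% control cells. The level nevertheless went with the library inside each kind of cluster. The 83 labelled Het cells that fell in clusters made almost wholly of KO cells kept 106 CPM (90.2 to 125), beside 2.63 CPM in the 3898 KO cells there. The 54 KO cells in control clusters had 15.3 CPM (8.14 to 26.1), from 13 UMIs, beside 162 and 140 CPM. In the 2 clusters that all libraries shared, the levels were 190, 148 and 3.18 CPM.

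Gstp1 ran the other way along this lineage. It was at 62.1, 52.6 and 38.2 CPM in precursors, 15.7, 13.5 and 8.78 CPM in dividing cells and 8.78, 7.73 and 3.96 CPM in non-dividing cells. KO was lowest at each of these steps, and among them the highest control levels of Gstp3 met the lowest of Gstp1. In cells with low Ltf and high Cxcr2, Gstp1 was at 4.87, 1.21 and 3.20 CPM, with KO between the controls. Those values rest on 5, 2 and 6 UMIs. Across classes Gstp1 was highest in erythroid-like cells, at 158, 143 and 100 CPM. KO was below both controls in all 7 classes, by log2 ratios from -0.16 to -1.61, yet in macrophage-like cells the ratio to labelled Het was 0.80 with an interval of 0.505 to 1.28, and in monocyte-like cells 0.893 (0.803 to 0.993). The lowest ratio was in B-lineage-like cells, at 85.0, 78.2 and 27.7 CPM (972, 1029 and 165 UMIs), where KO stood at 0.326 and 0.355 of the controls. The difference from labelled WT was 57.2 CPM, in a class where Gstp3 stood at 16.3 CPM in that library. Whether probes of these copies capture each other was not tested. Natural-killer-like cells had 128, 125 and 122 CPM. Gstp1 was at least 2-fold lower than both controls in B-lineage-like cells alone, and there it was the 1 member of 8 at the floor, against 4.41% of genes lower, with none higher against 2.36%. Gstp3 itself was below the floor in that class. The clusters of the class were not equally filled: the one with more Gstp1 among the 3 shared by all libraries held 609, 483 and 96 cells, at 100, 81.1 and 44.1 CPM. The others stood at 39.6, 42.4 and 17.6 CPM and at 33.6, 54.1 and 22.3 CPM. KO was lowest in each of the 3, and at least 2-fold below both controls in 1. Hepatocyte markers without Trf summed to 16.2, 23.0 and 117 CPM in this class, and their part in the result was not tested.

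Gstm1, whose product conjugates a broad range of electrophiles, was highest in the granulocyte precursors of every library. Precursor-like cells held 215, 193 and 220 CPM and gave 68.1% of its UMIs in the labelled WT library. Dividing cells had 7.77, 6.49 and 8.60 CPM and non-dividing cells 1.58, 1.31 and 1.37 CPM. The 3 libraries thus lost this transcript at the same point of the lineage. In no class with the floor level did KO differ 2-fold from both controls, and the log2 ratios ran from -0.81 to 0.74.

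**Figure D4:**
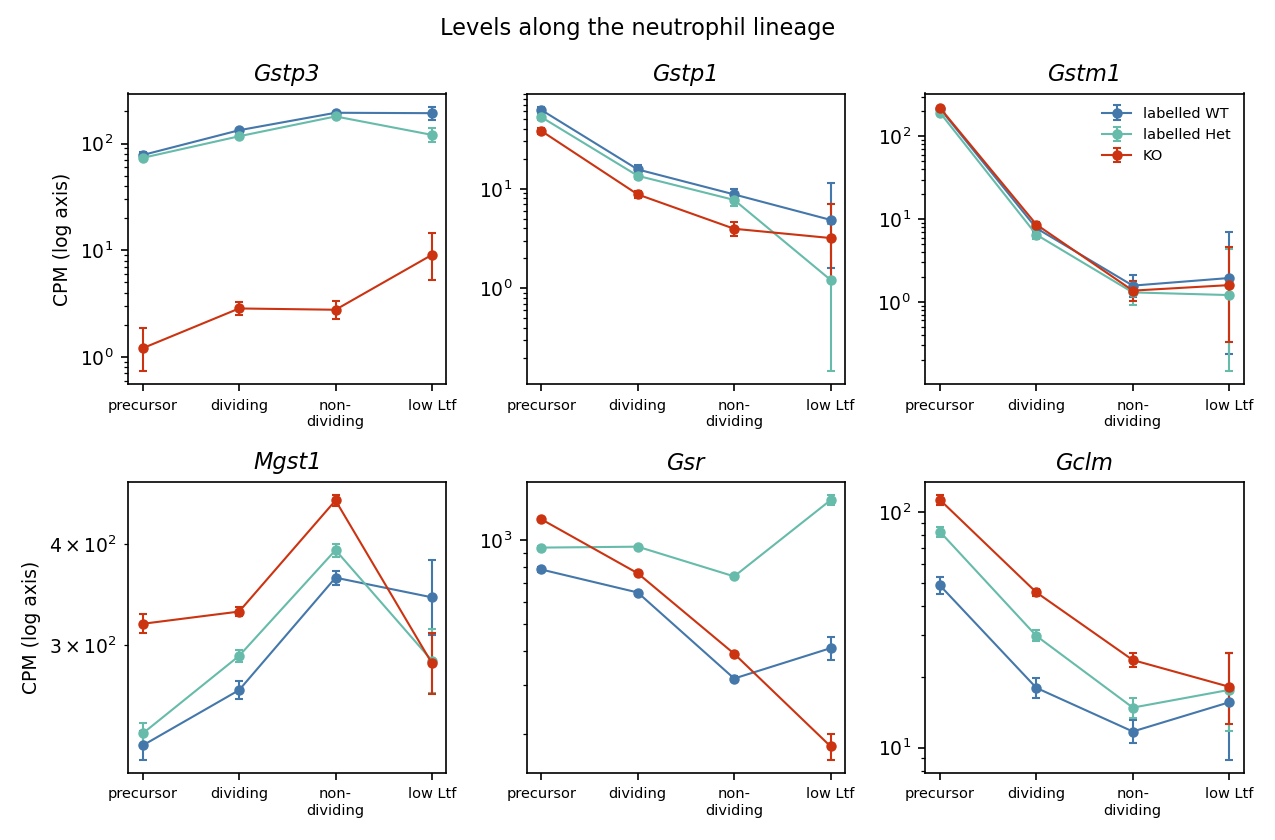
Levels of 6 members (CPM, log axes with different ranges) at 4 steps of the neutrophil lineage, with 95% Poisson intervals. Gstp3 climbs from precursors to non-dividing cells in both controls and stays between 1.21 and 9.06 CPM in KO; Gstp1, Gstm1 and Gclm decline up to the non-dividing step, Mgst1 peaks in non-dividing cells, and Gsr is highest in the labelled Het library from the dividing step on.

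Mgst1, a membrane transferase that also reduces lipid peroxides, followed the myeloid classes. Its levels were 316, 329 and 373 CPM in neutrophil-lineage-like cells, 226, 234 and 319 CPM in precursors, and 255, 308 and 517 CPM in monocyte-like cells. In monocyte-like cells KO was at 2.03 and 1.68 times the controls, the largest gap among classes with over 1000 of its UMIs in each library. In erythroid-like cells the order turned, with 37.9, 26.6 and 24.2 CPM. Mgst2, which can also conjugate leukotriene A4, was highest in precursors, at 116, 121 and 200 CPM, and in neutrophil-lineage-like cells it hardly differed, at 66.8, 77.9 and 74.8 CPM. In the 1 precursor cluster with at least 50 cells of each library, Mgst2 was at 174, 171 and 249 CPM. KO stood there at 1.43 and 1.46 times the controls. In monocyte-like cells it was at 10.5, 11.5 and 24.1 CPM (93, 142 and 718 UMIs), 2.29 and 2.11 times the controls. Of the KO UMIs, 398 lay in 1 cluster of 230 KO cells that also has Elane and Prtn3, genes of precursors, among its leading genes. Without it the levels were 10.5, 10.2 and 15.4 CPM, 1.46 and 1.5 times the controls. The monocyte-like cells shared no cluster with at least 50 cells of each library, and 47.8% of those of KO lay in clusters with under 5% control cells.

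Among the genes of synthesis, Gclc gave opposite pictures over all cells and within classes. Over all cells it was lowest in KO, at 39.6, 46.6 and 29.9 CPM. Within classes KO was the highest library in macrophage-like (50.0, 72.5 and 166 CPM), erythroid-like (78.0, 98.3 and 153 CPM), basophil- and mast-like (72.6, 77.4 and 118 CPM), monocyte-like and neutrophil-lineage-like cells, and it was lowest in precursors alone (40.5, 48.7 and 34.4 CPM). In the 1 precursor cluster with at least 50 cells of each library, Gclc was at 27.5, 28.7 and 24.8 CPM. The KO ratios to the controls there were 0.90 (0.745 to 1.09) and 0.86 (0.739 to 1.01). B-lineage-like cells had by far the highest control level, 193, 238 and 233 CPM, and gave 60.6% and 48.5% of all Gclc UMIs in the controls but 26.4% in KO. Their share of the cells was 20.2%, 16.1% and 11.2%. In macrophage-like cells 200 of the 270 KO UMIs came from 1 cluster of 53 KO cells, and without it KO was at 80.4 CPM, 1.61 and 1.11 times the controls. With each class given equal weight, the log2 ratio of KO over labelled WT turned from -0.40 to 0.40, and that over labelled Het from -0.64 to 0.10.

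Gclm, which raises the affinity of the ligase for glutamate, was highest in erythroid-like cells, at 204, 324 and 577 CPM (371, 2316 and 2175 UMIs). KO stood at 2.83 times labelled WT and 1.78 times labelled Het there. Hepatocyte markers without Trf summed to 15.4, 24.1 and 47.0 CPM in these cells, and their part was not tested. It was the highest library also in precursors (48.8, 82.4 and 112 CPM), neutrophil-lineage-like cells (14.7, 23.95 and 37.8 CPM), monocyte-like cells (35.4, 57.4 and 72.5 CPM) and basophil- and mast-like cells (43.3, 57.2 and 81.2 CPM). In these 5 classes the labelled Het library lay between the other libraries. B-lineage-like cells did not share the pattern, with 18.8, 32.8 and 19.0 CPM, nor did macrophage-like cells, with 83.4, 180 and 147 CPM. Gss, the second step, stood at 34.1, 41.5 and 28.1 CPM in erythroid-like cells and 16.01, 16.4 and 16.7 CPM in precursors. Its 50.4, 24.1 and 22.2 CPM in basophil- and mast-like cells rest on 50, 43 and 27 UMIs.

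Gsr, per class total, was highest in the labelled Het library in 4 of the 7 classes. Neutrophil-lineage-like cells had 475, 882 and 630 CPM, monocyte-like cells 442, 807 and 583 CPM, and macrophage-like cells 315, 772 and 338 CPM. Cells with low Ltf and high Cxcr2 had 408, 1398 and 180 CPM. Precursors alone among the neutrophil steps had most in KO, at 785, 942 and 1192 CPM. In erythroid-like and B-lineage-like cells the libraries were close together, at 216, 208 and 185 CPM and at 90.2, 85.3 and 71.1 CPM. Over all cells the log2 ratio to labelled WT was 0.75 for labelled Het and 0.53 for KO, and the latter became 0.81 with TMM factors, with KO then above labelled Het.

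**Figure D5:**
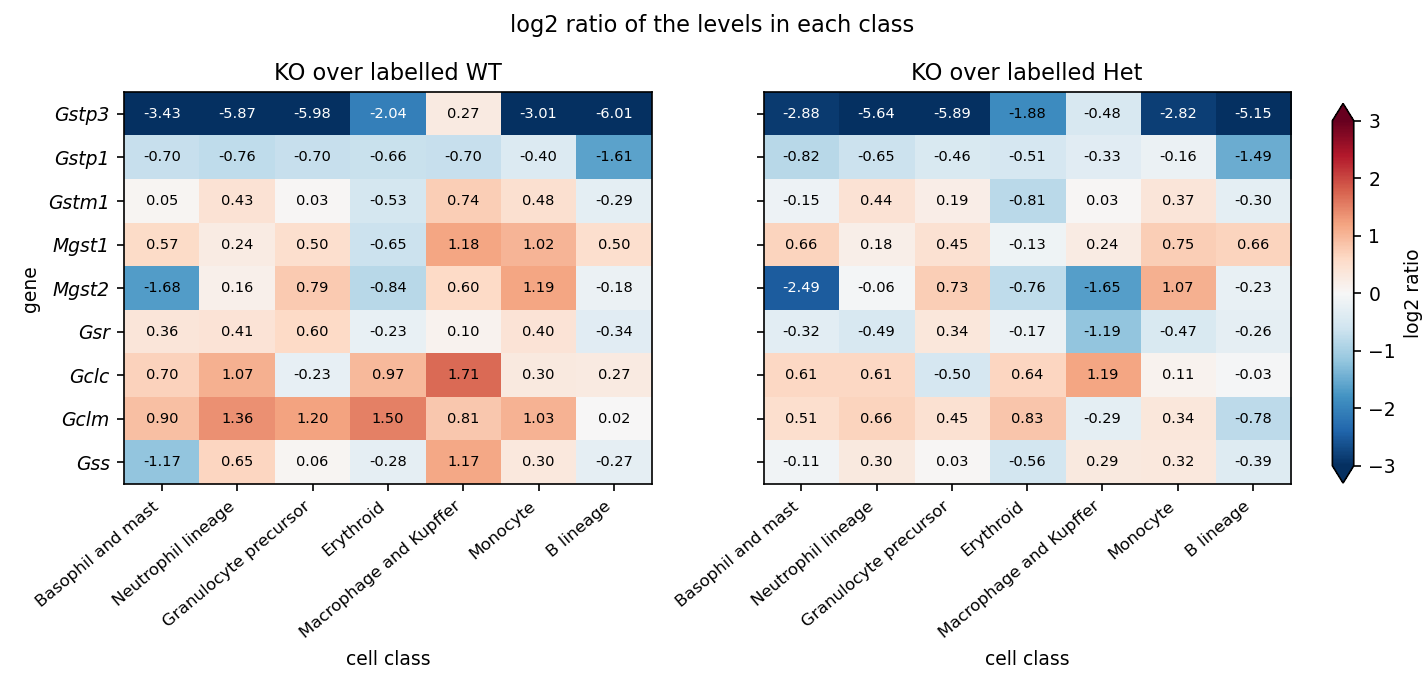
log2 ratio of KO over labelled WT (left) and over labelled Het (right) for each gene and class, with 0.5 counts added to each sum; blue is lower and red higher in KO, and colours saturate at 3. The Gstp3 row is blue throughout except in macrophage-like cells (0.27 and -0.48), the Gstp1 row is blue in all 7 classes, and the Gclm row is red except in B-lineage-like cells and, against labelled Het, macrophage-like cells.

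By class, the members at least 2-fold from both controls were few. Gstp3 was the 1 lower member in neutrophil-lineage-like cells (background 1.38% of genes), precursors (3.54%), erythroid-like cells (3.21%), basophil- and mast-like cells (2.43%) and monocyte-like cells (3.14%). Macrophage-like cells had none lower (3.89%). No member was higher in neutrophil-lineage-like cells (background 0.544%), precursors (0.651%), erythroid-like cells (1.95%) or basophil- and mast-like cells (1.9%). The higher members were Gclc in macrophage-like cells (4.21%) and Mgst2 in monocyte-like cells (1.2%), each 1 gene beside those background shares and each under 2-fold against labelled Het without the 1 cluster named above. At 1.5-fold, the higher members were Gclm in neutrophil-lineage-like cells (3.05% of genes), Mgst2 in precursors (3.66%), Gclc and Gclm in erythroid-like cells (6.98%), Gclc in basophil- and mast-like cells (9.31%) and in macrophage-like cells (12.3%), and Mgst1 and Mgst2 in monocyte-like cells (5.2%), with none in B-lineage-like cells (9.47%). In clusters with at least 50 cells of each library, Mgst2 of precursors was only 1.43 and 1.46 times the controls. Gclm of neutrophil-lineage-like cells was 2.28 and 1.35 times the controls in such clusters. The lower members at 1.5-fold were Gstp3 and Gstp1 in neutrophil-lineage-like cells (5.3%) and in basophil- and mast-like cells (7.94%), Gstp3 in precursors (11.1%), erythroid-like cells (9.75%) and monocyte-like cells (8.73%), Gstp1 in B-lineage-like cells (12.1%) and none in macrophage-like cells (8.89%). Of the KO macrophage-like cells, 78.6% lay in clusters with under 5% control cells.

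The rest of the pathway was taken from 5 lists of genes, given over all cells unless a class is named. Of 24 other glutathione transferases, 23 were in the deposited matrices and 8 reached the floor. Gstt2 (theta class) was the 1 gene at least 2-fold below both controls, at 20.7, 18.4 and 7.34 CPM, and none was above. Of the 7 classes, Gstt2 passed at the floor in erythroid-like cells alone. The median log2 ratios of that list were -0.17 and -0.36. By class they ran from -0.78 and -0.78 in B-lineage-like cells to 0.56 and 0.82 in macrophage-like cells. In neutrophil-lineage-like cells they were 0.55 and 0.06. Of 12 glutathione-using peroxidases, glutaredoxins and glyoxalases, 10 were in the matrices and 8 reached the floor. None of them passed in either direction, and the medians were 0.16 and 0.15. Of genes of glutathione turnover, export and cysteine supply, 7 of 20 reached it. Slc1a5, a glutamine carrier, was lower (67.1, 64.0 and 27.9 CPM) and Ggt5, a gamma-glutamyl transferase that splits glutathione conjugates, was higher (6.09, 8.45 and 21.7 CPM), with list medians of -0.44 and -0.95. By class, Slc1a5 passed in precursors, and Ggt5 in macrophage-like and monocyte-like cells. None of the 12 NRF2-related genes at the floor passed, with medians of -0.25 and -0.15, and Nfe2l2 itself was at 113, 111 and 75.7 CPM beside Keap1, its inhibitor, at 78.4, 74.8 and 55.3 CPM. None of the 12 genes of NADPH supply passed, with medians of 0.31 and 0.04. These medians are read against -0.13 and -0.16 for all genes, and the list counts against 4.67% of genes lower and 0.624% higher.

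The antioxidant response element was looked for as its core letters, TGACNNNGC, on both strands of the RefSeq promoters (GRCm38.p6, 250 bases before to 50 after each start). The table held 7 of the 9 members (all but Gsr and Gclc), and 2 of these carried a match, Gclm and Mgst1, against 14.0% of the 27025 genes and 12.4% of the 32851 promoters in the table. Both matches lay on the opposite strand, and they are shown in capitals with 25 bases on each side. Over all cells Gclm, Mgst1 and also Mgst2, which carried no match, were higher in KO than in both control libraries. For Mgst2 the ratio to labelled Het changed sign under the alternatives given above. For Gclm the log2 ratio to labelled Het was 0.21, and 0.09 without cells holding a hepatocyte-marker UMI. A link between the matches and these levels was not tested. The Gclm stretch is chr3:122245398-122245456 and the Mgst1 stretch chr6:138140446-138140504, both on the plus strand.
Gclm: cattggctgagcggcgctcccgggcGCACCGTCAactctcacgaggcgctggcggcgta
Mgst1: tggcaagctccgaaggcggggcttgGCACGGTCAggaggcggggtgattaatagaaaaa
A match describes letters in a window and is not evidence of binding.

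The genes whose pattern was most like that of Gstp3 were sought among 7927 genes over 21 points, 7 classes in each of 3 libraries, by Pearson's r of log2(CPM + 1). They were Fosb (r = 0.76), an AP-1 subunit, Arap3 (0.73), a regulator of small GTPases, Sox13 (0.73), a transcription factor, Bcorl1 (0.73), a corepressor, and Tecr (0.71), an enzyme of very-long-chain fatty acid elongation. The points share libraries and depth, so r is a description. Fosb was at 29.7, 14.8 and 0.859 CPM over all cells, and in basophil- and mast-like cells at 476, 192 and 18.1 CPM. In neutrophil-lineage-like cells Sox13 was at 73.8, 71.4 and 42.6 CPM and Tecr at 763, 627 and 510 CPM, differences far smaller than that of Gstp3. Over the 14 points of the control libraries alone the leading genes were Cd9 (0.96), Dapk2 (0.95) and Sox13 (0.95), and Fosb was not among the first 5 there or by Spearman's rho. Among the other members, r with Gstp3 was highest for Gstp1 over 3 libraries (0.25) and for Gsr over the controls (0.32), where Gstp1 was at -0.14.

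Other neighbours of Gstp3 on chromosome 19 showed no difference near its size. On the side of Gstp1, Ndufv1 (a subunit of mitochondrial complex I) was at 124, 128 and 103 CPM and Nudt8 at 11.4, 14.1 and 13.4 CPM. On the other side, Cdk2ap2 was highest in KO, at 159, 206 and 315 CPM, and Pitpnm1 was at 81.1, 72.6 and 83.7 CPM. Cabp2, the nearest gene on that side, gave 0 UMIs in every library. Of the neighbours named here, Gstp1 was the 1 gene more than 1.5-fold below both controls.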

How the data were processed

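The authors deposited whole-number UMI counts per gene and cell, made with Cell Ranger 7.0.0 against mm10, per the submitters' processing notes. The libraries come from a probe-based assay on fixed cells, per the labels' protocols. The 9 members and the gene lists were chosen with earlier results of these data known. Counts were summed per library or class and given as CPM of 1e+06 total UMIs. Intervals are exact Poisson (levels), exact conditional binomial (ratios) and Clopper-Pearson (shares), at 95%, and log2 ratios have 0.5 counts added. They cover counting error only. No p-value was computed, because each genotype has 1 library.

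Doublets called by Scrublet (273, 186 and 298 cells) were left out of the classes and kept in the sums over all cells. Cells were clustered jointly with scanpy 1.11.5 and Leiden (2000 variable genes without the members, their lists, sex-linked genes and Pex2; 40 components, 20 neighbours, resolution 1.0), giving 57 clusters. Clusters were named from marker lists, and clusters without clear markers stayed unnamed (5.25% of KO cells), so class levels depend on rebuilt names. All 9 members are named in the text, other genes by list, by the fold rule, by likeness to Gstp3 or by position. edgeR 4.0.16 and DESeq2 1.42.0 served only as scaling alternatives. The counting was tested on simulated data. These analyses were chosen after seeing the data: shared clusters, deep cells, neutrophil steps, the Ltf tracer, the split of neutrophil clusters by KO share and levels without single clusters. A comparison of the proteins was not made here. Pi-class coding sequences came from GENCODE vM21 on GRCm38 and promoters from RefSeq.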

Additional observations from a re-analysis of the deposited data

Results flagged for a closer look

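Mgst2 moved in opposite directions in different classes. Its log2 ratio of KO over the labelled Het library was 1.07 in monocyte-like cells, -2.49 in basophil- and mast-like cells and -1.65 in macrophage-like cells. The difference between classes was not tested. The basophil- and mast-like values rest on 20 UMIs in the labelled Het library and 2 in KO, and the macrophage-like values on 28 and 18. Against the labelled WT library the macrophage-like ratio was 0.60, on the other side of 0.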

How the results depend on the processing

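Gstp3 stayed lower in KO than in both controls under every alternative run over all cells. Its log2 ratios over labelled WT and labelled Het were -5.04 and -4.81 as reported, -4.76 and -4.47 with TMM factors, -4.77 and -4.50 with DESeq2 size factors, -4.71 and -4.44 as means of per-cell CPM, -5.40 and -5.20 without cells holding a hepatocyte-marker UMI, and -3.20 and -2.99 with 10 CPM added. The hepatocyte alternative removes 9106 cells, most of them for Trf. The count of members at least 2-fold from both controls went from 1 to 2 without those cells and to 2 at 1.5-fold, Gstp1 being the second each time. The share of all genes 2-fold lower was 4.67% at a floor of 10 CPM, 9.51% at 1 CPM and 15.5% with no floor. Within classes, 806 of 852 values kept their sign, as did all 209 that were at least 2-fold as reported. No paired analysis was possible because each genotype has 1 library. Differences in Gss and in the small classes are limited by their few UMIs.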
